A study of Mus musculus with 68 samples.

Results

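Skeletal muscle contractile and metabolic genes were followed as a set of 46 genes across mouse mammary tumours. All 46 had a probe set on the array, out of 18194 genes with a probe set of their own, and the brightest probe set on average stood for each gene. The genes had been picked with their behaviour in these tumours already known, so their spread and their correlations are given as descriptions without a test. They comprise 14 genes of fast fibres, 7 genes of slow fibres, 23 genes that both fibre types use and 2 developmental myosins.

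The samples were mammary tumours that arose spontaneously in MMTV-PyMT transgenic mice. These mice came from a ((NZB x PyMT) x FVB) backcross. The MMTV promoter drives the polyoma middle T antigen in mammary epithelium, so the tumours are epithelial, and a tumour piece can also hold other cells. No treatment, age or untransformed control is labelled, all 68 arrays fall into 1 group, and each array is 1 tumour RNA hybridised to an Affymetrix chip. The description rests on 56 arrays of 56 animals whose mean over the 18S ribosomal RNA control probe sets was below 8. The highest mean kept was 6.84 and the lowest left out was 8.97. The labels give an animal number, which leaves a wide gap near 4000, and a mark R on some titles whose meaning is not stated. Of the 56 arrays, 41 carry numbers of up to 3891, 15 carry numbers of 4946 or higher and 8 carry the mark R.

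Muscle contracts when myosin thick filaments pull on actin thin filaments inside sarcomeres, which are anchored at Z-discs and M-bands. The troponin complex switches the thin filament on when calcium leaves the sarcoplasmic reticulum. Fast fibres and slow fibres build the same machine from different isoforms of myosin, troponin and calcium pump. Slow fibres rely on oxidative metabolism and fast fibres more on glycolysis and stored phosphocreatine. These proteins are made chiefly in striated muscle.

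The start-site windows of 4 members are shown because the members moved together between tumours, and these sequences hold short motifs known from muscle promoters. They are RefSeq windows of GRCm38.p6, from 250 bases before to 50 bases after the start, printed along the gene's strand. Capitals mark every match on either strand to a CArG box (the site of serum response factor), a MEF2 site, the E-boxes CAGCTG and CACCTG (sites of myogenic basic helix-loop-helix factors) and CATTCC (a site of TEAD factors). Acta1 (chr8:123894726-123895025, minus strand) encodes skeletal alpha-actin. Ckm (chr7:19410844-19411143, plus strand) encodes muscle creatine kinase. Myh4 (chr11:67237562-67237861, plus strand) and Myl2 (chr5:122092474-122092773 and chr5:122092939-122093238, plus strand, 2 starts) are the fast and the slow member with the largest SD.
Acta1: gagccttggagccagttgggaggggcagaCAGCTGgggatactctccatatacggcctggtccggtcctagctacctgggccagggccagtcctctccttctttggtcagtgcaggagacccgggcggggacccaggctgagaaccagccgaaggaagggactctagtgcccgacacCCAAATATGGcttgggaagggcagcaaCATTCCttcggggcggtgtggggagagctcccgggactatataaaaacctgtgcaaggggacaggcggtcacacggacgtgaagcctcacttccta
Ckm: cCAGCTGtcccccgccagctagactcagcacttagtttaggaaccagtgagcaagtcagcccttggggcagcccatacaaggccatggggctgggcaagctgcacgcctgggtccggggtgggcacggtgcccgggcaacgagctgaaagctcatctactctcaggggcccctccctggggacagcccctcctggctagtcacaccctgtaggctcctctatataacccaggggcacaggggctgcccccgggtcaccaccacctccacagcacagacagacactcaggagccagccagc
Myh4: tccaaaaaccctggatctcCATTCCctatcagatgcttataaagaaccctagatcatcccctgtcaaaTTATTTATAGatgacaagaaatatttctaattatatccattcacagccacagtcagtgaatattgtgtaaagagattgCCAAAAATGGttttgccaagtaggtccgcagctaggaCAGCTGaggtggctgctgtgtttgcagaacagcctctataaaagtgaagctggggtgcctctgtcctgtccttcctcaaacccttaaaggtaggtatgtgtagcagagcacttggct
Myl2 start 1: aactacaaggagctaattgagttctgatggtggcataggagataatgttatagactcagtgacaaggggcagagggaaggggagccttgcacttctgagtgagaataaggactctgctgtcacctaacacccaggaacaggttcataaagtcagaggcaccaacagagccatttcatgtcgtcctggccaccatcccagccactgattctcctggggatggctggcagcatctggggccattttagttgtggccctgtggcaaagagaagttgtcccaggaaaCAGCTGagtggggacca
Myl2 start 2: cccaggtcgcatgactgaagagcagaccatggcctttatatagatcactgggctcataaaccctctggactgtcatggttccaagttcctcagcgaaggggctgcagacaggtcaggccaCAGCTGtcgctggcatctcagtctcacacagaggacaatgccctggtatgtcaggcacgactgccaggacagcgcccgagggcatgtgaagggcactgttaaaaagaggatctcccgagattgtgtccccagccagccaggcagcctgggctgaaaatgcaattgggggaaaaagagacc
In Acta1 the CArG box began 73 bases before the start, CATTCC 46 bases and CAGCTG 221 bases before it. In Myh4 the CArG box began 104 bases, the MEF2 site 182 bases, CAGCTG 67 bases and CATTCC 231 bases before the start. Ckm held CAGCTG 249 bases before its start and no other of these motifs in the window. Myl2 held CAGCTG 33 bases after its start 1 and 130 bases before its start 2. None of the marked matches overlapped another.

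Windows were found for 35 of the 46 members. CAGCTG lay in 18 of the 35 members (51.4%) and in 18.3% of the 27025 genes with a window. CATTCC lay in 13 members (37.1%) against 16.6% of all genes. A MEF2 site lay in 7 members (20%) against 3.70%, and a CArG box in 5 members (14.3%) against 1.81%. CACCTG, in 9 members (25.7%) against 22.6%, had nearly the share it had in all genes. Of the 7 slow members, 4 held CACCTG and 3 held CAGCTG. Of the 10 fast members with a window, 3 held CACCTG and 5 held CAGCTG. A match describes the letters in the window and was not tested as a site.

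Between tumours the muscle genes were among the most variable genes on the array. The median SD of the 46 members over the 56 arrays was 1.49 (log2), against 0.227 for the 12562 genes that passed a filter on dim genes. Of these members, 43 passed that filter, which asks that the 95th percentile of a gene's values exceed the median of all values. The slow myosin Myh7 and the developmental myosins Myh3 and Myh8 did not. Members made up 18 of the 30 genes with the largest SD, and 37 members lay among the 628 genes in the top 5%. In bulk tumour RNA, fewer muscle fibres and less RNA per fibre cannot be told apart. The values are on a log2 scale and probes differ in brightness, so each gene is compared only with itself across arrays.

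**Figure D1:**
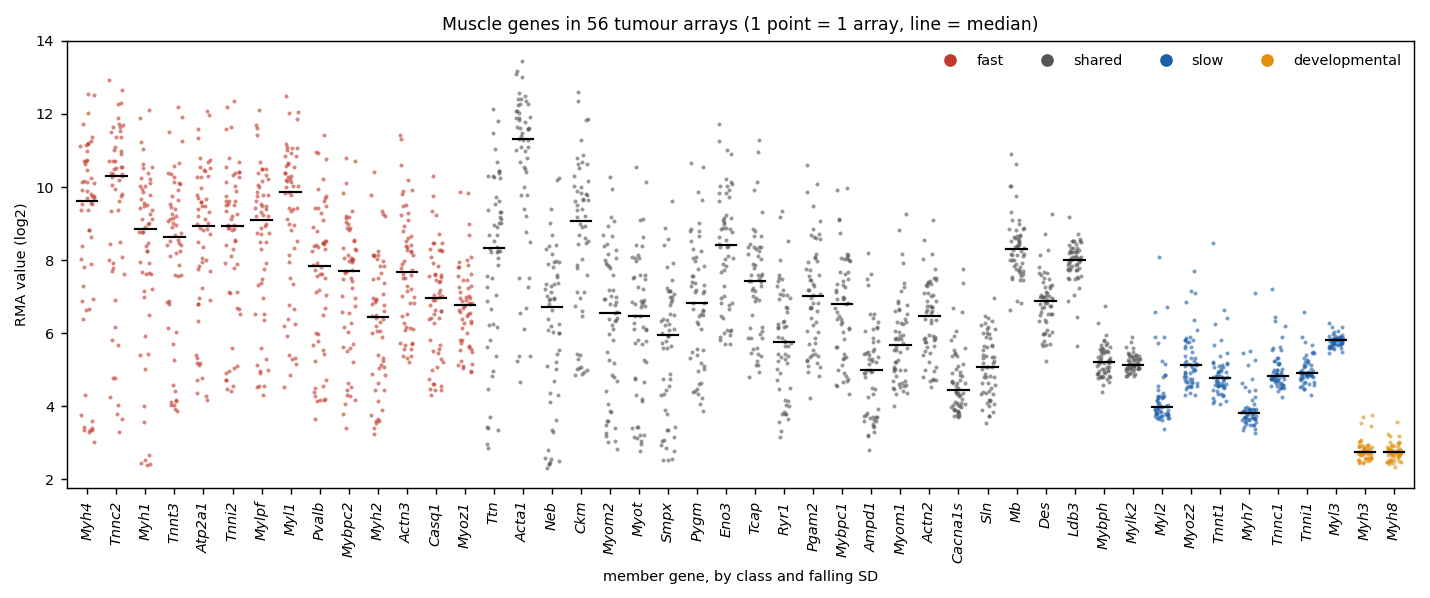
RMA values (log2, vertical axis) of the 46 muscle genes (horizontal axis) in 56 tumours, with 1 point per array and a line at the median. Fast genes such as Myh4 spread from 3.02 to 12.54, whereas slow genes such as Myl2 sat near their median of 3.99 with a few arrays above it, up to 8.08.

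The myosin heavy chains, the motors of the thick filament, showed the contrast between fibre types. Myh4, the heavy chain of the fastest glycolytic fibres, had its lowest value at 3.02, its median at 9.63 and its highest at 12.54 (SD 2.80). Myh1, another fast heavy chain, ran from 2.39 through a median of 8.85 to 12.12 (SD 2.53). For Myh4, 10 tumours lay between 3.02 and 4.31, and the next value was 6.38. Myh2, the heavy chain of fast oxidative fibres, ran from 3.25 through 6.45 to 10.42 (SD 1.79). Myh7, the heavy chain of slow fibres, had its lowest value at 3.26, its median at 3.82, its upper quartile at 3.95 and its highest value at 7.11 (SD 0.65). Most tumours were therefore packed near the bottom of the Myh7 range and a few stood above. The embryonic heavy chain Myh3 stayed between 2.45 and 3.76 and the perinatal heavy chain Myh8 between 2.35 and 3.57. These heavy chains other than Myh7 lie on chromosome 11, and Myh1 is read by a probe set of the kind that can also bind related transcripts, so its value is uncertain next to its near-identical neighbours.

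The light chains repeated the pattern. Mylpf, the fast regulatory light chain, ran from 4.30 through 9.10 to 12.12 (SD 2.10), and Myl1, the fast essential light chain, from 4.54 through 9.86 to 12.48 (SD 2.09). Myl2, the slow regulatory light chain, ran from 3.39 through 3.99 to 8.08 (SD 0.89). Its upper quartile was 4.30, so the height of its range came from a few tumours. Myl3, the slow essential light chain, moved least of the slow members, from 5.47 to 6.27 (SD 0.16). That value depends on the probe set, because another probe set of Myl3 had an SD of 0.609. The myosin binding proteins Mybpc2 (fast, SD 1.84) and Mybpc1 (SD 1.402) spread widely, and Mybph (SD 0.43) and the myosin light chain kinase Mylk2 (SD 0.23) little.

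On the thin filament, Acta1, which encodes skeletal alpha-actin, ran from 4.66 through 11.31 to 13.45 (SD 2.29). Tnnc2, the calcium-binding troponin C of fast fibres, ran from 3.29 through 10.29 to 12.93 (SD 2.59). Its slow counterpart Tnnc1 ran from 4.25 through 4.83 to 7.21 (SD 0.55). The same held for the inhibitory subunit, with Tnni2 (fast) spanning 4.41 to 12.35 and Tnni1 (slow) 4.31 to 6.58. Of the tropomyosin-binding subunits, Tnnt3 (fast) spanned 3.88 to 12.20 and Tnnt1 (slow) 4.06 to 8.46. Every slow troponin had its highest value in the tumour of animal 2424. Neb, which encodes the thin filament ruler nebulin, ran from 2.32 through 6.71 to 10.25 (SD 2.15).

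At the Z-disc and M-band, Ttn, which encodes the giant spring titin, ran from 2.86 through 8.33 to 12.14 (SD 2.40). The M-band gene Myom2 (SD 1.98) and the Z-disc genes Myot (1.961), Smpx (1.82) and Tcap (1.49) also spread widely. Myom2, like Myh1, is read by a probe set of the kind that can also bind related transcripts. Its other probe sets had SDs of 1.42, 1.36 and 0.118. Actn3, the alpha-actinin of fast fibres, had an SD of 1.61 and its relative Actn2 one of 1.07. Myoz1, a calcineurin-binding Z-disc protein of fast fibres, had an SD of 1.14, and Myoz2, its slow relative, 0.74. Des, which encodes the intermediate filament desmin, ran from 5.25 through 6.90 to 9.26 (SD 0.78). Ldb3, a Z-disc PDZ protein, had an SD of 0.56 in its brightest probe set and one of 1.26 in another.

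The calcium genes of fast fibres, the pump Atp2a1 (SD 2.14), the calcium buffer Pvalb (2.08) and the calcium store protein Casq1 (1.499), also varied between tumours, with Casq1 below the SDs of all fast filament genes (1.79 for Myh2, the lowest). Ryr1, the calcium release channel, had an SD of 1.48, and Cacna1s, its voltage sensor, one of 0.92. Sln, which encodes the pump inhibitor sarcolipin, ran from 3.54 through 5.08 to 6.95 (SD 0.85) and was highest in the tumour of animal 3290. Among the metabolic genes, Ckm ran from 4.86 through 9.08 to 12.60 (SD 2.14). The glycolytic genes Pygm (1.71), Eno3 (1.60) and Pgam2 (1.48) and the AMP deaminase Ampd1 (1.26) followed by SD. Mb, which encodes the oxygen store myoglobin, ran from 6.64 through 8.30 to 10.90 (SD 0.84).

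The members rose and fell together. Each gene's deviation in a tumour is its value minus its own median over the 56 arrays, and a group's deviation is the mean over its genes. Over the 1035 pairs of members, the median Pearson r across the 56 arrays was 0.830, against 0.00942 for pairs within a regular subsample of the genes that passed the filter. The 91 fast pairs had a median r of 0.963 and none was below 0.880. The 21 slow pairs had a median r of 0.837, and the 98 pairs of a fast with a slow gene one of 0.583. Genes used by both fibre types followed the fast genes (median r 0.937, 322 pairs) more closely than the slow genes (0.603, 161 pairs). The first principal component of the 46 standardised members held 78.6% of their variance and the second 7.01%. The 7 slow genes took the 7 highest loadings on that second component, with Mb in rank 8, and Acta1, Tnnc2 and Myh4 the lowest.

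**Figure D2:**
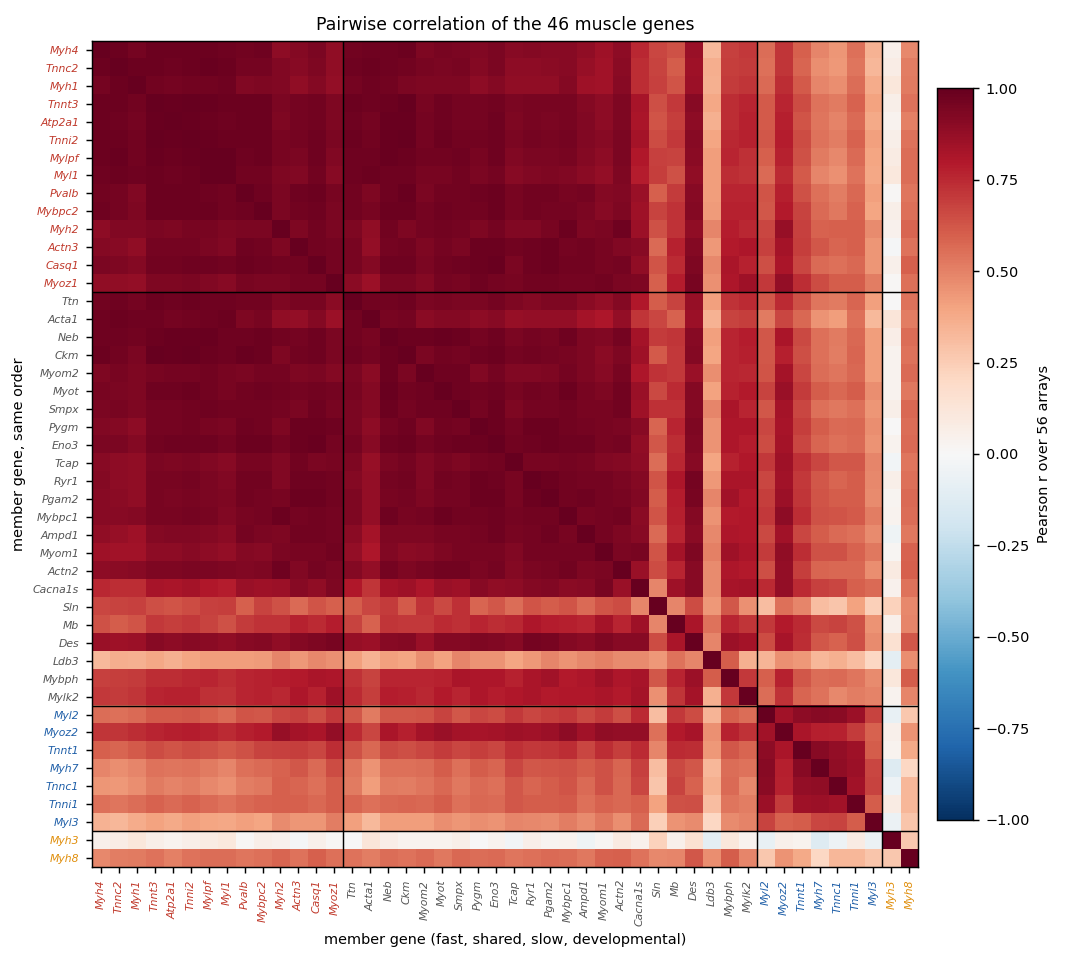
Pearson r over 56 arrays for each pair of the 46 muscle genes, with both axes in the order fast, shared, slow and developmental and lines between the classes. Fast pairs had a median of 0.963 and slow pairs one of 0.837, and the pale band between them is the fast with slow block, with a median of 0.583.

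Against the mean of the other members, all 14 fast genes had an r of 0.948 or more, led by Tnni2 at 0.990. No slow gene passed 0.9, and Myoz2 was closest at 0.839. Mybpc1, classed here among the genes that both fibre types use, had 0.977. In all, 31 of 46 members had an r over 0.9. The lowest values were those of Myh3 (0.0496), Ldb3 (0.443), Myl3 (0.459) and Myh8 (0.564), followed by Tnnc1 (0.576), Myh7 (0.604), Tnni1 (0.622), Sln (0.659), Myl2 (0.670) and Tnnt1 (0.707). For Ldb3 the choice of probe set decided the value, since its probe set with the larger SD had an r of 0.970. All genes that passed the filter had a median r of -0.0538 with the member deviation.

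Tumours differed first in the level of the fast and shared genes. The fast deviation ran from -4.34 in the tumour of animal 4957 to 3.21 in that of animal 3864, with 13 arrays above 1 and 10 below -3. The slow deviation ran only from -0.43 to 2.59, with 5 arrays above 1 and none below -1. At the low end, Myh4 read 3.35 in animal 4957, 3.02 in animal 3824 and 3.29 in animal 3830. Acta1 read 5.25, 4.66 and 7.52 in the same tumours. Low tumours were thus low in each of these fast and shared genes, while their slow genes sat close to the slow median. Most slow probes were near their lowest readings at the median, so a fall in them could only be small. The slow deviation in animals 4957, 3824 and 3830 was -0.36, -0.29 and -0.27, at ranks 54, 53 and 52 of the 56 arrays.

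**Figure D3:**
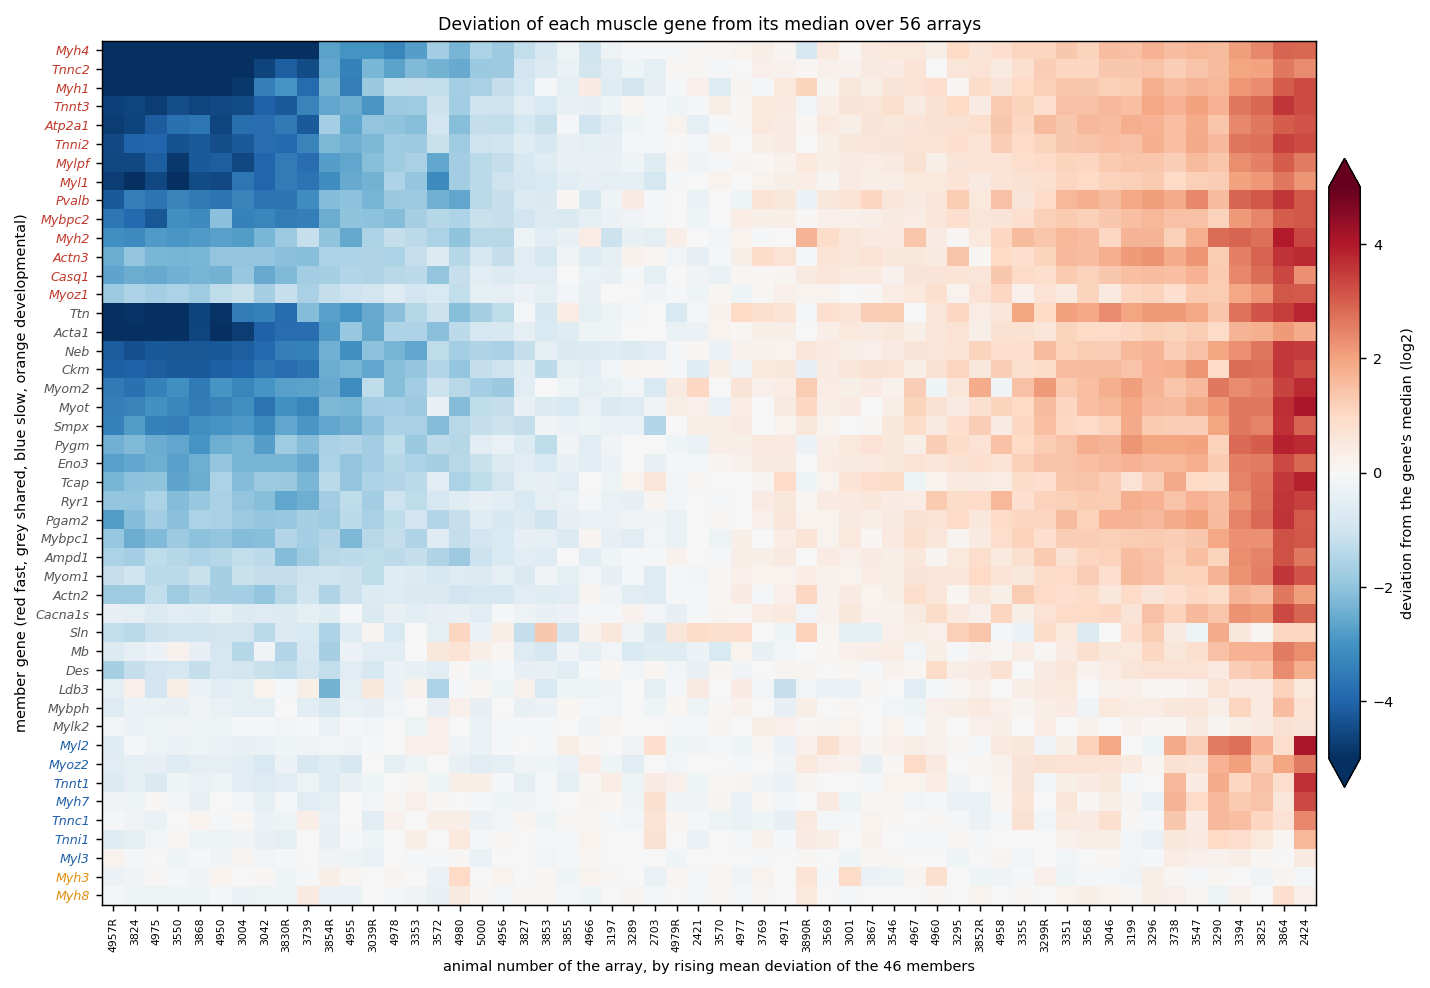
Deviation of each of the 46 genes (rows, by class) from its own median in the 56 tumours (columns, by rising mean deviation), in log2 from blue (below) to red (above), with colours saturating at the ends of the scale. Fast and shared genes changed together from left to right, and slow genes turned red in few tumours at the right, such as that of animal 2424 with a slow deviation of 2.59.

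Tumours differed secondly in how far slow genes rose with the fast ones. Fast and slow deviations correlated across the 56 arrays with r = 0.667 by Pearson and rho = 0.8005 by Spearman. Without the 2 arrays farthest from the median of the fast deviation, those of animals 4957 and 3824, the r was 0.660. Both lie at the low end, so this value does not show how far the r rests on tumours with high slow genes. No p is given, since the genes were chosen for moving together. The tumour of animal 2424 was rank 2 for fast genes (2.98) and rank 1 for slow genes (2.59). That of animal 3864 was rank 1 for fast genes (3.21) and rank 6 for slow genes (0.74). Single genes showed the gap between these tumours of like fast level. Myh4 read 12.51 in animal 2424 and 12.54 in animal 3864, and Ckm read 12.35 and 12.60. Myh7 read 7.11 and 4.41, Myl2 read 8.08 and 4.86, and Tnnt1 read 8.46 and 5.67.

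Slow genes were high together in the same few tumours. The arrays of animals 2424, 3290 and 3394 were among the 5 highest for all 7 slow genes, that of animal 3738 for 6 of them and that of animal 3825 for 4. Animal 3290 had a slow deviation of 1.52 beside a fast deviation of 1.54, and animal 3738 had 1.19 beside 1.43. Animal 3296 was the opposite case, with a fast deviation of 1.678 and a slow deviation of -0.14. There Myh4 read 11.38, close to the 11.19 of animal 3290, while Myl2 read 3.75 against 6.59 and Tnnc1 read 4.72 against 6.45. Animal 2703 had fast genes slightly below their medians (-0.27) and slow genes above theirs (0.51).

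**Figure D4:**
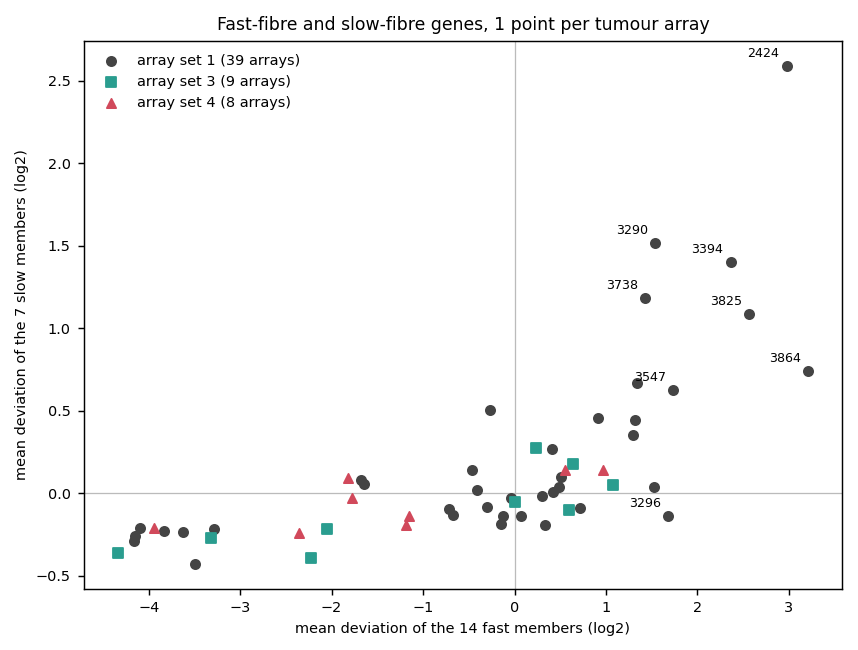
Mean deviation of the 14 fast genes (log2, horizontal axis) against that of the 7 slow genes (log2, vertical axis), with 1 point per tumour and the marker giving the technical array set. Slow genes stayed within -0.43 and 0.51 until the fast deviation passed about 1, and beyond that tumours parted, from animal 3296 with a slow deviation of -0.14 to animal 2424 with 2.59.

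To see what was left once the common level was taken out, each gene was fitted with a quadratic curve on the mean deviation of the shared genes, and its residual was called the departure. The fit held 93.6% to 98.7% of the variance of the fast genes, with Myh2 lowest and Tnni2 highest, and 28.99% to 82.9% of that of the slow genes. Departures of slow genes still went together, with a median r of 0.588, against 0.191 among fast genes and -0.0335 between fast and slow genes. The largest departures of Myl2 were 1.66 in animal 2424 and 1.56 in animal 3290 on the high side, and -1.88 in animal 3864 and -1.24 in animal 3296 on the low side. Myh7 had its extremes in animals 2424 (1.56) and 3864 (-1.38), and Tnnt1 in the same tumours (1.84 and -1.19). These tumours also had the highest shared deviations (2.65 and 2.90), so their departures lie at the end of the curve, where arrays are few. A low departure there is not a low level, as Myl2 read 4.86 in animal 3864, above its upper quartile of 4.30. How far the r of the slow departures rests on these tumours was not tested.

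The fast myosins Myh4 and Myh2 also parted from each other in some tumours. Myh4 lay below its curve in animals 3739 (-1.31) and 3890 (-1.14), where Myh2 lay above its own (1.19 and 1.29). In animal 3739, Myh4 read 3.44, Myh1 5.02 and Myh2 5.31. That Myh4 value lies in the group of lowest Myh4 readings described above. In animal 3854, at a similar deviation of the shared genes (-1.72 against -1.82), Myh4 read 6.95, Myh1 6.50 and Myh2 4.44. Myh4 and Tnnc2 lay 1.89 and 1.69 above their curves there. Myh1 also had its highest departure in animal 3854, so it rose with Myh4. The arrays of animals 3890 and 3854 carry the mark R and lie in technical array set 3. The array of animal 3739 lies in array set 1. The part of the array set in these departures was not tested. The tumour of animal 3854 also had the lowest departures of Ldb3 (-2.05) and Mb (-1.07). Sln departed most of the shared genes, with a departure SD of 0.627, and its curve held 47.02% of its variance. Its departures were highest in animals 3853 (1.39) and 4980 (1.36).

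Whether the members also differed with the labels was tested with limma over the 12562 genes, with the number range and the mark R in 1 model and Benjamini-Hochberg adjustment. The question was whether tumours of the upper numbers or with the mark differed in muscle RNA, and the upper numbers gave no call among the members at the threshold of 0.05. Of all genes tested, 18.6% were called higher and 6.23% lower in the upper numbers, and 0 of the 43 tested members were called either way. At an unadjusted p below 0.05 there were 11 of 43 members, against 36.3% of all genes. All 43 members had a difference below 0, with a median of -0.84 (log2) against 0.02 for all genes. Since the members move together, these are not 43 separate observations. Members also spread more than most genes, with a median SD of 1.49 against 0.227. A difference of a given size is therefore called less readily among them, here and for the mark R. The member deviation had a median of -0.70 and a maximum of 0.63 over the 15 upper arrays, and a median of 0.28 and a maximum of 2.63 over the 41 lower arrays. The lower numbers thus held all 10 arrays with a member deviation above 1, and the groups overlapped over most of their range. Ttn came closest to the threshold. It ran from 2.98 through a median of 7.04 to 9.33 in the upper numbers and from 2.86 through 8.69 to 12.14 in the lower numbers. Its limma difference was -1.64 (SE 0.66, adjusted p = 0.0619). Leaving out 1 array decided this call. Without any of 11 arrays in turn (animals 3004, 3042, 3550, 3824, 3854, 3868, 4958, 4967, 4971, 4977 and 4979), 1 or 2 members passed as lower. These were Ttn in 10 of the 11 fits, Myom2 in 7 and Ldb3 in 1, and the lowest adjusted p of a member ran from 0.0185 to 0.101 over all omissions.

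The numbers were tied to technical array sets, found as splits of the arrays that many probe sets on many chromosomes share exactly. All 8 arrays of array set 4 carry upper numbers, whereas array set 1 holds 35 lower and 4 upper numbers. Within array set 1 the median difference of the members was -0.75, with the lowest adjusted p at 0.428. With the array set as a block, the median was -0.81 and the lowest adjusted p was 0.682, and in both fits limma called no gene of any kind. At an unadjusted p below 0.05 these fits had 1 and 0 members. Fast and slow deviations had an r of 0.663 in array set 1 (39 arrays), 0.816 in array set 3 (9 arrays) and 0.731 in array set 4 (8 arrays). Centring each array on its median gene moved the share of higher calls among all called genes from 74.9% to 49.2% and left 0 members called, with 18 at an unadjusted p below 0.05.

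For the mark R, 1 of 43 members was called lower and 0 higher, against 20.8% of all genes lower and 13.7% higher. The difference was below 0 for 42 of the 43, with a median of -0.69 against -0.03 for all genes, and the median was -1.99 with the array set as a block. At an unadjusted p below 0.05 there were 2 members, against 43.4% of all genes. The called gene was Mb, read by the brighter of its 2 probe sets. It read 6.64, 6.82, 7.61, 7.69, 7.77, 8.27, 8.35 and 8.50 in the 8 marked arrays, and ran from 6.88 through a median of 8.39 to 10.90 in the 48 others. All marked values but the highest lay below that median, and the groups overlapped. Its limma difference was -0.76 (SE 0.30, adjusted p = 0.0414). The call was lost without any of 5 of the 8 marked arrays in turn (animals 3039, 3830, 3854, 4957 and 4979), with adjusted p-values of up to 0.147. Without the array of animal 3890, Tnni1 was called lower as well. The call was also lost with the array set as a block (-0.69, adjusted p = 0.9999), and mark R and array set 3 cannot be told apart, as 8 of its 9 arrays carry the mark. Centring each array moved the share of higher calls among all called genes from 39.6% to 54.3% and took the adjusted p of Mb to 0.0549. Some markers of other cells also passed the test for the mark, in both directions. Of 5 macrophage markers 3 were called lower, with a summed level of 40.8 to 47.5 in marked and 43.2 to 50.3 in other arrays. Of 6 mammary epithelial markers 2 were called lower (64.9 to 68.0 against 66.9 to 69.5). Of 7 white adipocyte markers tested 2 were called lower, and the sum over the 8 measured was 44.9 to 64.5 against 45.04 to 79.8. Of 5 endothelial markers 2 were called lower and 1, Kdr, higher (26.6 to 30.6 against 27.4 to 33.4). Lor of the skin list, Ppargc1a of the brown adipocyte list and Mybpc3 of the cardiac list were called higher, and the smooth muscle and nerve lists had no call. Their part in the difference of Mb was not tested.

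Other genes of the muscle machinery were followed through 4 lists. Of 26 further contractile and Z-disc genes, 16 had an r over 0.8 with the member deviation and the list's median was 0.844, against -0.0538 for all genes. Cmya5, which encodes the Z-disc protein myospryn, had 0.962, the small heat shock protein gene Hspb6 0.957, the LIM protein gene Fhl1 0.943 and Nrap 0.933. At the other end were Tnnt2, the cardiac troponin T (-0.332), Tpm3, a tropomyosin that slow fibres and many other cells use (-0.167), the atrial light chain Myl4 (0.0182) and Myoz3 (0.207). Of 11 further calcium genes, 6 passed 0.8 and the median was 0.807. Hrc (0.944) and Trdn (0.941), both proteins of the calcium store, were highest. Atp2a2, the calcium pump of slow and cardiac muscle and of many other cells, had -0.122, and its inhibitor Pln 0.00858. The fast pump Atp2a1, a member, had 0.981 with the other members.

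Of 13 further genes of muscle energy metabolism, 4 had an r over 0.8 and 11 an r over 0.5. The muscle cytochrome oxidase subunit Cox6a2 (0.952) and the mitochondrial creatine kinase Ckmt2 (0.949) were highest, and the glycogen synthase Gys1 (-0.00377) and the bisphosphatase Fbp2 (0.0255) lowest. Myogenic regulators and satellite cell genes had a lower median, 0.349 over 9 genes, and none of the 9 passed the filter on dim genes. Myf6, the regulator of mature fibres, had 0.866 and ran from 3.37 through 4.21 to 6.63. Pax7, which marks satellite cells, had 0.0667 and stayed between 3.43 and 3.98, and Chrng, the acetylcholine receptor subunit of immature fibres, had -0.122. In the label tests, with the shares of all genes at 18.6% higher and 6.23% lower for the upper numbers, 1 gene of the contractile list (Tnnt2), 1 of the calcium list (Cacnb1) and 1 of the energy list (Gys1) were called higher in the upper numbers and Phka1 was called lower. With mark R, against 13.7% of all genes higher and 20.8% lower, Tpm3, Myl4, Atp2a2 and Pln were called higher and Tpm1, Myoz3 and Cacnb1 lower. The 3 lists had 22, 9 and 11 genes tested. None of these calls remained with the array set as a block, where limma called 0 of the 12562 genes for either label.

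**Figure D5:**
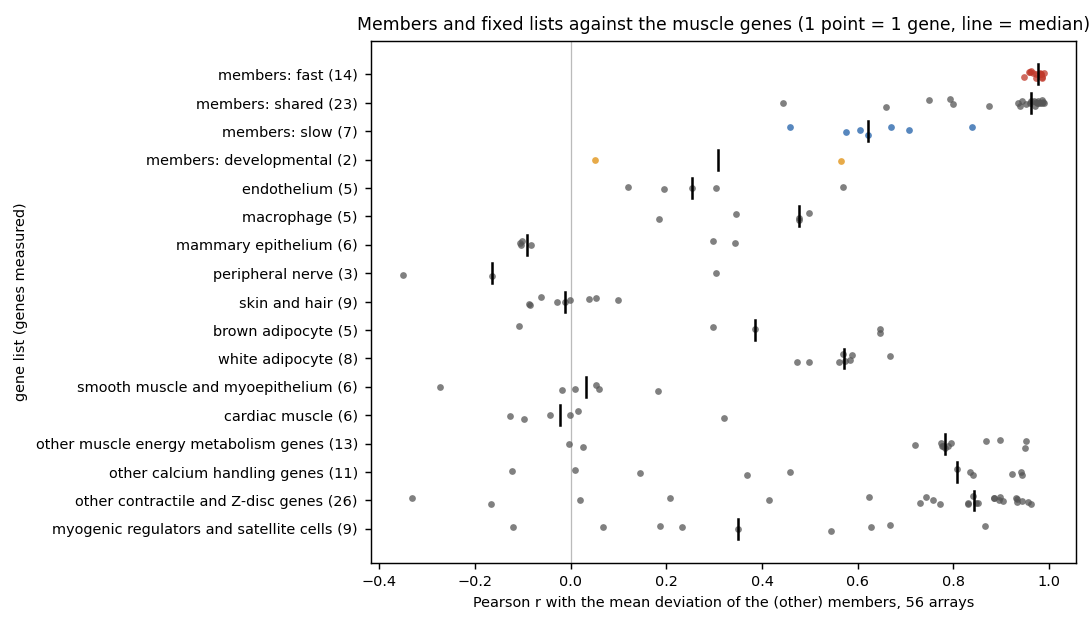
Pearson r over 56 arrays between each gene and the member deviation (horizontal axis), or for members the mean of the other members, with genes grouped by member class or list (vertical axis) and a line at each median. Further contractile genes had a median of 0.844, cardiac genes one of -0.0224 and white adipocyte genes one of 0.571.

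Markers of other tissues that a tumour piece could hold were read in the same arrays. The tumours carried their epithelial markers throughout, with Krt8 between 11.90 and 12.94 and Elf5 between 11.36 and 12.53. The median r of the 6 mammary epithelial genes with the member deviation was -0.0925, but the genes differed. Elf5 had 0.343 and Esr1 0.298, and the others lay between -0.106 (Krt8) and -0.0835 (Cdh1). Within array set 1, Elf5 had 0.208 and Epcam -0.414. Cardiac genes (median r -0.0224, 6 genes), smooth muscle and myoepithelial genes (0.0309, 6 genes), skin and hair genes (-0.0119, 9 genes) and peripheral nerve genes (-0.165, 3 genes) had median values of r between -0.165 and 0.0309. Of the 6 cardiac markers, Myh6 (2.91 to 3.56), Nppa (2.86 to 3.36) and Myl7 (3.31 to 3.94) stayed at low readings in every array. Nppb read 4.31 to 5.14. Tnni3 (5.06 to 6.61) and Mybpc3 (5.08 to 5.86) passed the filter on dim genes, with an r of -0.0978 and -0.000816. Adipocyte genes had higher values. The 8 white adipocyte genes had an r of 0.473 to 0.668, with the carbonic anhydrase gene Car3 highest, which muscle also expresses. Of the 5 brown adipocyte genes, Ucp1, the heat-producing uncoupler, had 0.647 and Cidea 0.646, and Ppargc1a had -0.108. Ucp1 kept an r of 0.676 within array set 1. In array set 4 it fell from 0.823 to 0.190 without 2 arrays. Macrophage genes had a median of 0.476 and endothelial genes one of 0.254. The part of these tissues in the spread of the muscle genes was not tested.

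Measures of RNA quality moved little with the member deviation. The 18S control mean had an r of 0.120, the Gapdh 3' minus 5' difference -0.0829, the Actb 3' minus 5' difference 0.0894 and the SD of all values within an array -0.222.

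Outside the members and the lists, 12431 genes were ranked by their r with the member deviation over the 56 arrays. The 10 closest were Synpo2 (0.957), Hjv (0.953), Asb5 (0.946), Mypn (0.933), Rtn2 (0.931), Asb11 (0.919), Ky (0.917), Synm (0.910), Dhrs7c (0.908) and Tmem182 (0.904). Synpo2 ran from 3.61 through 5.28 to 8.63, and Hjv, which encodes the iron regulator hemojuvelin, from 4.16 through 5.41 to 7.45. Mypn encodes the Z-disc protein myopalladin, and Synm an intermediate filament protein. All 10 had an r with the fast deviation (0.867 to 0.930) above that with the slow deviation (0.740 to 0.821). In all, 91 genes had an r over 0.8, and 34 of them were members. For a member this deviation includes the gene itself, and Mybph had only 0.799 with the mean of the other members.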

How the data were processed

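Total RNA of mouse mammary tumours was hybridised to Affymetrix arrays after Trizol and RNeasy extraction, per the labels' protocols. The authors made the deposited values, read here as log2, with RMA (background correction, normalisation between arrays and summary of probes), per the submitters' processing notes. The log2 reading rests on their range, 1.68 to 14.57, and their median, 5.42. The version, settings and log base are not given in the sources used here. The table holds 45101 probe sets and 68 arrays. The number of arrays limits the precision, and raw intensities were not used here.

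Probe sets were named through the platform annotation, with 34958 listing 1 gene and 34754 of these found in the gene table of GRCm38.p6. The members and lists were chosen with earlier results of these data known. All 46 members are named, with the 4 highest and lowest correlations of the largest lists and the 10 closest other genes. Gene lists are described by counts and medians.

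Array sets are splits that 20 or more probe sets, on 10 or more chromosomes, share exactly, with an Ashman's D above 4.5 and no side under 15% of the arrays. They are not the study's groups. Array set 2 holds the 12 arrays with high 18S values. Labels were tested with limma 3.58.1 in R 4.3.3 (lmFit and eBayes, two-sided, Benjamini-Hochberg threshold 0.05), a procedure tested on simulated data. Other values came from Python 3.11.15 with numpy 2.4.6 and pandas 2.3.3. The labels name separate animals, so arrays of different numbers were taken as separate tumours. Alternatives covered the arrays used, the probe set of a gene, the class of Mybpc1, the filter, the block, the centring and the correlation measure.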

Additional observations from a re-analysis of the deposited data

How the results depend on the processing

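The median SD of the members stayed between 1.09 and 1.54 over 7 alternatives, the median r of all pairs between 0.811 and 0.863 over 8 and that of fast pairs between 0.955 and 0.977 over 8. The number of members in the top 5% by SD stayed between 35 and 39. The fast and slow contrast depended in part on the class given to Mybpc1. Counting Mybpc1 as slow gave 0.774 for slow pairs, 0.596 for fast with slow pairs and 0.783 for the fast and slow deviations. The other 12 arrays, those with high 18S values, alone gave 0.400 for slow pairs, 0.185 for fast with slow pairs and 0.463 for the fast and slow deviations. Spearman's rho gave 0.622 for slow pairs and 0.8005 for the fast and slow deviations. These arrays and the rank measure were added as alternatives after seeing the data, as was leaving out each array in turn. Leaving out 1 array gave 0.768 to 0.844 for slow pairs and 0.558 to 0.606 for fast with slow pairs, lowest in both without animal 2424, and 0.650 to 0.686 for the deviations. It gave 1.42 to 1.502 for the median SD, 0.810 to 0.834 for all pairs and 0.962 to 0.965 for fast pairs.

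Members lower in the upper numbers were 0 in each of the 10 alternatives, in which the lowest adjusted p by limma ran from 0.0506 to 0.682, and 0 to 2 when 1 array was left out. No member was higher for either label in any alternative. Members lower with mark R numbered 0 with all 68 arrays, with the array set as a block, with no filter on dim genes and with each array centred, 2 (Mb and Des) with the mean of all probe sets of a gene, and 0 to 2 when 1 array was left out. The log2 difference of Mb was -0.45, -0.69, -0.76 and -0.71 in the first 4. The causes of these changes were not tested. No paired analysis was possible because the arrays form 1 group and no animal number occurs more than once among the 56 arrays. With all 68 arrays, 2 animal numbers entered with 2 arrays each, taken as separate samples. Signal over background was not used here, so dim members such as Myh7, Myh3 and Myh8 can hide small changes.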

Other observations

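The 12 arrays with high 18S values, which entered none of the descriptions, also held muscle RNA at differing levels. Their fast deviation, taken from the medians of the 56 arrays, ran from -3.83 in animal 4973 to 0.94 in the second array of animal 3351. Their slow deviation ran from -0.60 to 0.11. Fast genes thus varied among these arrays as well, and none of them had slow genes far above the median of the 56 arrays. These arrays form technical array set 2, split from the rest by 2434 probe sets. A shift between array sets and a difference in muscle RNA cannot be told apart in their deviations.

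The numbers 3296 and 3351 occur on 2 arrays each, with mark R on the array that has the high 18S value. For number 3296, Myh4 read 11.38 on the array kept and 9.24 on the other, and Acta1 read 12.49 and 11.21. For number 3351, Myh4 read 10.99 and 9.82, and Acta1 read 12.42 and 11.46. The member deviation was 1.14 and 0.31 for number 3296 and 0.96 and 0.82 for number 3351. The member deviation from the medians of the 56 arrays was thus positive on either array of both numbers. The 2 arrays of a number lie in different array sets, so their readings also carry any shift between sets. On the marked array of number 3296, Myh4 and Acta1 lay below their medians of 9.63 and 11.31. The slow deviation of number 3296 was -0.14 on the array kept and -0.34 on the other. Whether the arrays of a number share a tumour or an RNA is not stated in the labels.

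Probe sets of one gene did not always tell the same story. Of the 46 members, 14 had more than 1 probe set, 71 probe sets in all. For Myh1, 2 probe sets had SDs of 2.53 and 2.48, while its dim remaining one had 0.166 and an r of 0.163 with the other members. For Sln the dimmer probe set had an SD of 0.121 and an r of -0.00425, and for Mb the dimmer one had 0.159 and -0.0658. Ldb3 and Myl3 were the members whose brightest probe set did not have the largest SD.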
